A study of Mus musculus with 6 samples.

Results

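Imprinted genes were followed in RNA from the hearts of mouse offspring at day 4. They were 42 genes fixed by name, taken from the 54532 genes of the deposited table, and all 42 were found. Igf2 and Igf2r were left out. In the STZ group (n = 3) the mothers received intraperitoneal STZ, read here as streptozotocin, a toxin of pancreatic beta cells, while pregnant. In the control group (n = 3) the mothers received citric acid by the same route. All 6 offspring carried the wild-type genotype on the outbred ICR background, and the series asks how gestational diabetes affects the heart of the offspring. Litters are not named in the labels, so hearts of 1 group may share a mother, and p-values measure only the spread between these 6 samples.

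An imprinted gene is transcribed mainly from the copy inherited from the mother or from the father. The choice is set by DNA methylation laid down at CpG sites in the egg or the sperm and kept after fertilisation, while the rest of the genome is reset. Many of these genes act on fetal growth, the placenta or stem cell quiescence, and several are abundant in fetal mesoderm and muscle before they decline after birth. Because the exposure came through the mother, the genes were grouped by the copy known to be expressed in mouse. There were 12 genes of the maternal copy, 23 of the paternal copy and 7 whose imprinting is limited to some tissues or transcripts. The values are totals over both copies, so nothing here tells which copy the RNA came from. In RNA from heart tissue, fewer cells of a type and less RNA per cell cannot be told apart either.

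Several members carry small RNAs inside the transcript that was measured, and mature miRNAs are shown for H19 and Mest, the most abundant gene of each copy, and for Meg3 of the Dlk1-Meg3 domain (RefSeq, GRCm38.p6; seed, bases 2 to 8, in capitals). H19 and Mest each span 1 miRNA hairpin, and of the miRNAs within Meg3 those of miR-770 are shown. The miRNAs themselves were not measured. None of the 6 shares its seed with another.
mmu-miR-675-5p, in H19: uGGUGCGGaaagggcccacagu
mmu-miR-675-3p, in H19: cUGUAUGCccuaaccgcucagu
mmu-miR-335-5p, in Mest: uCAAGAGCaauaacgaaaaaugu
mmu-miR-335-3p, in Mest: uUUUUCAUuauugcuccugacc
mmu-miR-770-5p, in Meg3: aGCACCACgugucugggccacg
mmu-miR-770-3p, in Meg3: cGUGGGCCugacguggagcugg

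Imprints sit at CpG-rich promoters of many paternal copy genes, so 3 such promoters are shown, each as 300 bases from 250 before to 50 after the annotated start (RefSeq, GRCm38.p6). Peg3 and Usp29 start back to back: their gene bounds lie 146 bases apart, and their windows share 263 bases on opposite strands. In the Peg3 window (chr7:6730370-6730669, minus strand) the 13 CpG sites are in capitals. In the windows of Mest (chr6:30737800-30738099, plus strand) and Plagl1 (chr10:13090582-13090881, plus strand) the capitals mark TGCCGC on either strand (GCGGCA as its complement), the letters bound by ZFP57, a zinc finger protein that keeps imprints methylated.
Peg3: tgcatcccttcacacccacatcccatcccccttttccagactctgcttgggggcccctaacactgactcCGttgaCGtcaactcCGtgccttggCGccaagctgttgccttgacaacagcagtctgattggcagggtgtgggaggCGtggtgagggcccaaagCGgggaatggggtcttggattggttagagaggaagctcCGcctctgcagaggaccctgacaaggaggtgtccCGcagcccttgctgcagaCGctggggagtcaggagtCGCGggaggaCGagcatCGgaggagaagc
Mest: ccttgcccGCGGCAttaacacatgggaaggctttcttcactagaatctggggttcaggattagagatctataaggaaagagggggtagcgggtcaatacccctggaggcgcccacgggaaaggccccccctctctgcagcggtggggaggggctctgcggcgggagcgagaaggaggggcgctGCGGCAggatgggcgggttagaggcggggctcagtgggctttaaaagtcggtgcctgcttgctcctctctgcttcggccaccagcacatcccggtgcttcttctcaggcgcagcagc
Plagl1: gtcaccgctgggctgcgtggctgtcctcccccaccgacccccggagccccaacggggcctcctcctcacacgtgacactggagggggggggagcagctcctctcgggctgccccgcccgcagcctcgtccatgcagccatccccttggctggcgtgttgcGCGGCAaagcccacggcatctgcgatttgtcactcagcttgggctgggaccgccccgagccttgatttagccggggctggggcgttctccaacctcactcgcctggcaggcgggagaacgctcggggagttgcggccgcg

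Promoter windows were used for 34 of the 42 genes, 50 windows in all, some of which overlap. Impact was left out by its chromosome, a filter that was not applied to the set of all genes. TGCCGC, the 1 motif searched, on both strands, was in a window of 12 of the 34 genes (35.3%), against 13.1% of all 27025 genes with a window. Counted by window, the shares were 26% of the 50 windows and 11.6% of all 32851 windows. Snrpn and Snurf, both among the 12, share 1 identical window. The motif was found for 4 of 10 maternal copy genes, 7 of 18 paternal copy genes and 1 of 6 limited genes. The Mest window shown held 2 matches and 17 CpG sites, the Plagl1 window 1 match and 26 CpG sites, and the Peg3 window 0 matches. That Mest window was picked for its number of matches, and another Mest window held 0 matches and 8 CpG sites. The median was 13 CpG sites per window for the members and 7 for all promoters. These counts describe letters only and were not tested.

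Levels are given as FPKM, fragments per kilobase of gene, scaled by the authors for each library, so that genes can be compared per length. The libraries held 16707268 to 18082599 recovered reads. A gene was tested when it reached 1 FPKM in at least 3 libraries, which 12431 genes and 30 of the 42 members did. Control 2 stood apart from the other 5 libraries. It held 6249 summed FPKM of 6 atrial markers, against 42.1 to 124 in the 3 STZ hearts and 46.2 and 53.1 in controls 1 and 3, and 7952 of 10 cardiomyocyte markers, against 14971 to 17931 elsewhere. All 10 cardiomyocyte markers passed the filter, so the labelled tissue has its defining genes. Whether the same parts of the heart entered each sample was not tested. Control 3 was the 1 library with high Xist (70.6 FPKM) and with 0 FPKM of the Y-linked Ddx3y, Eif2s3y, Kdm5d and Uty. The STZ group held no such library, and control 3 stays among the controls when control 2 is left out. No member lies on a sex chromosome, but whether members differ with sex was not tested.

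No imprinted gene differed between STZ and control hearts past the threshold (limma on log2(FPKM + 1), Benjamini-Hochberg or BH adjustment over all 12431 genes, 0.05). It was passed by 0.0241% of all tested genes, 0.0161% as higher and 0.00804% as lower in STZ, and by 0 of the 30 tested members. Cdkn1c was the 1 member with an unadjusted p under 0.05, against 2.59% of all tested genes (1.17% higher and 1.42% lower in STZ). With voom on recovered reads 0 members passed, against 0.00804% of all tested genes, and 1 had an unadjusted p under 0.05, against 2.04%. That member was not Cdkn1c, whose unadjusted p by voom was 0.061. Without control 2, 0 members had an unadjusted p under 0.05, against 3.93% of all tested genes. The log2 fold change, STZ over control, was positive in 13 and negative in 17 members, while 57.7% of all tested genes were positive. Its median was -0.029 for the members and 0.03 for all tested genes. Without control 2 the log2 fold change was positive in 10 and negative in 20 members, while 49.4% of all tested genes were positive.

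By expressed copy, the 8 tested maternal copy genes had a median log2 fold change of -0.28, with 3 positive and 5 negative. The 15 tested paternal copy genes had a median of -0.035, with 5 positive and 10 negative. The 7 limited genes had a median of 0.09, with 5 positive and 2 negative. Without control 2 these medians were -0.024, -0.078 and -0.014, and that of all genes was -0.0016. With all libraries kept, the median of the maternal copy genes was also -0.022 over the 4 with a mean of at least 5 FPKM. Without control 2, 4 of the 8 tested maternal copy genes were positive and 4 negative. Leaving out another library could enlarge a value: over the 6 libraries left out in turn, the log2 fold change ran between -1.26 and -0.13 for Nnat, -0.80 and -0.079 for Meg3, and 0.017 and 0.69 for Mest. In control 2 the level of the maternal copy genes, the median of log2(FPKM + 1) minus each gene's own mean, was 0.40, and it lay between -0.095 and 0.08 in the other 5 libraries.

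**Figure D1:**
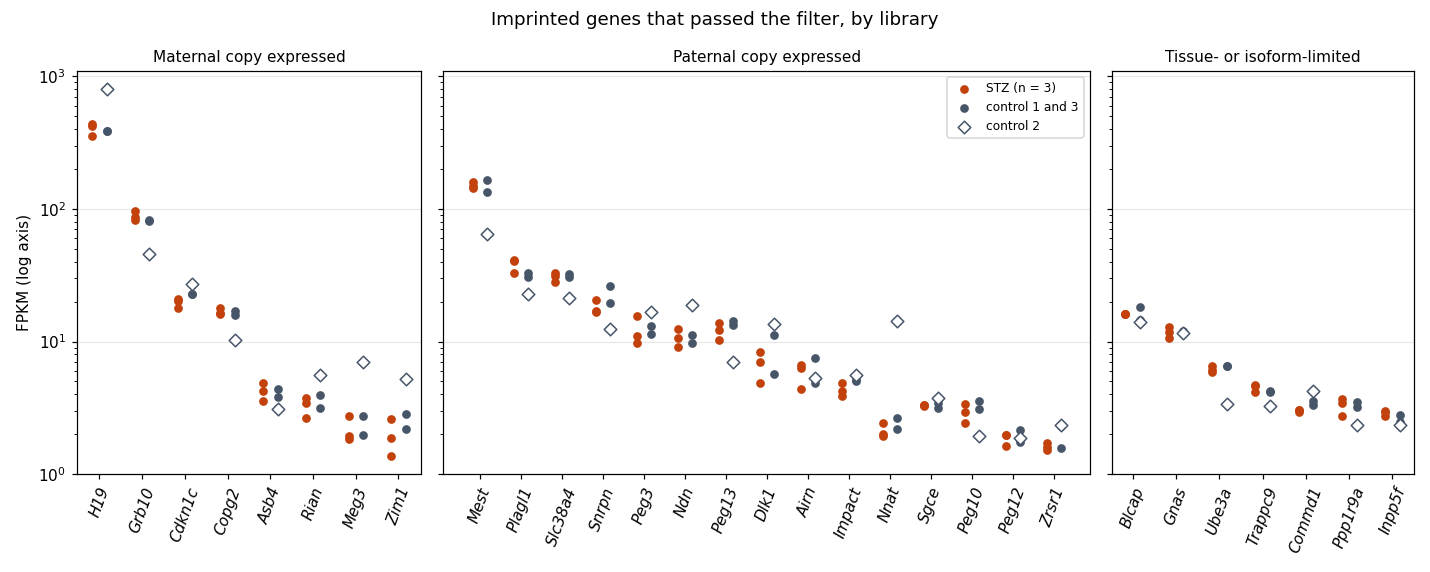
FPKM (log axis) of the 30 tested members in each library, split by expressed copy and ordered by mean level. STZ libraries are at the left of each gene and control libraries at the right, with control 2 as an open diamond. H19 and Mest lead their groups, and the open diamond is often the highest or lowest point of its gene.

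Among maternal copy genes, H19 was the most abundant. It is a long noncoding RNA of fetal mesoderm (chromosome 7, 142575529 to 142578143, minus strand, GRCm38) and ranked 55th of all genes by mean FPKM. H19 stood at 438, 421 and 354 FPKM in STZ hearts, against 387, 799 and 388 FPKM in controls. The groups overlapped, and control 2 was at 2.06 times the mean of controls 1 and 3. On the log2 scale H19 differed by -0.29, STZ minus control (SE 0.311; BH-adjusted p = 0.922 by limma), and without control 2 the sign was positive, at 0.055.

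Grb10 encodes an adaptor that restrains insulin and growth factor receptors, and its maternal copy is expressed outside neurons. It was at 95.6, 86.4 and 82.7 FPKM in STZ hearts, against 81.8, 45.8 and 81.4 FPKM in controls. All 3 STZ values were above all 3 controls, but the lowest of them exceeded control 1 by little. The log2 fold change was 0.38 (SE 0.239; limma, BH-adjusted p = 0.922) and 0.11 without control 2. A 2-sided exact permutation test gave p = 0.1, the smallest that 3 against 3 samples allow. Copg2, a coatomer subunit of vesicle coats, was at 17.8, 16.5 and 16.0 FPKM in STZ hearts, against 15.8, 10.3 and 16.9 FPKM in controls. Its groups overlapped, with control 2 again lowest. Asb4, part of a ubiquitin ligase, was at 4.26, 3.54 and 4.84 FPKM in STZ hearts, against 3.79, 3.08 and 4.38 FPKM in controls.

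Cdkn1c encodes the cyclin-dependent kinase inhibitor p57 and had the lowest p of the tested members. It was at 20.1, 20.9 and 18.003 FPKM in STZ hearts, against 22.9, 27.0 and 22.7 FPKM in controls. Every STZ heart was below every control. The log2 fold change was -0.28 (SE 0.119, 95% interval -0.57 to -0.0011; limma, unadjusted p = 0.0493, BH-adjusted p = 0.922), and -0.21 without control 2. The exact permutation p was 0.1. Slc22a18, a transporter gene beside it in the same domain on chromosome 7, was too low to be tested. It was at 0.0993, 0.210 and 0.0952 FPKM in STZ hearts (3, 6 and 3 reads), against 0.385, 0.523 and 0.437 FPKM in controls (11, 19 and 13 reads). Every STZ value was again below every control. With no filter on low values the log2 fold change of Slc22a18 was -0.35 (SE 0.073; limma, unadjusted p = 0.0029, BH-adjusted p = 0.868). Kcnq1ot1, the paternal noncoding RNA that silences the domain in cis, was at 0.045, 0.085 and 0.077 FPKM in STZ hearts (74, 133 and 133 reads), against 0.082, 0.090 and 0.073 FPKM in controls (128, 180 and 119 reads). Its groups overlapped, and it lies opposite to Kcnq1. Phlda2, a brake on placental growth, was listed at 0 in all 6 libraries, and Ascl2, a factor of the trophoblast, had 2 reads in control 2 and 0 in the others.

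The maternal noncoding RNAs of the Dlk1-Meg3 domain on chromosome 12 had their highest values in control 2. Meg3 was at 1.83, 1.93 and 2.77 FPKM in STZ hearts, against 1.97, 7.04 and 2.72 FPKM in controls. Rian, a host of small nucleolar RNAs, was at 3.73, 2.67 and 3.46 FPKM in STZ hearts, against 3.14, 5.61 and 3.95 FPKM in controls. Both overlapped between the groups, and the log2 fold changes of -0.50 (SE 0.359) for Meg3 and -0.27 (SE 0.194) for Rian were -0.079 and -0.088 without control 2. Mirg, which spans 14 miRNA hairpins on its strand, was not tested. It had 17, 20 and 30 reads in STZ hearts, at 0.131, 0.163 and 0.222 FPKM, against 28, 100 and 29 reads in controls, at 0.228, 0.641 and 0.227 FPKM. All STZ values were below all control values in FPKM, while in reads STZ 3 was above controls 1 and 3. Dlk1, the paternal copy gene of the domain, encodes a membrane protein related to Notch ligands that marks precursor cells. It was at 8.32, 4.84 and 7.04 FPKM in STZ hearts, against 5.66, 13.5 and 11.2 FPKM in controls, with overlapping groups. Its log2 fold change was -0.47 (SE 0.313; limma, unadjusted p = 0.174, BH-adjusted p = 0.922). It was -0.25 without control 2 (limma, unadjusted p = 0.438). It was -0.81 without control 1 (limma, unadjusted p = 0.011, BH-adjusted p = 0.775), the lowest value with 1 library left out. Rtl1, a retrotransposon-derived gene needed in placenta, had 11 to 27 reads in STZ hearts and 16 to 27 in controls.

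In the Peg3 domain, Zim1 is the maternal copy zinc finger gene. It was at 1.37, 2.59 and 1.87 FPKM in STZ hearts, against 2.17, 5.23 and 2.85 FPKM in controls (-0.55 on the log2 scale, SE 0.274; BH-adjusted p = 0.922 by limma). STZ 2 lay above control 1, so the groups overlapped, and without control 2 the value was -0.27. Peg3, the paternal zinc finger gene, was at 9.81, 11.050 and 15.7 FPKM in STZ hearts, against 13.011, 16.8 and 11.4 FPKM in controls. Usp29, which starts back to back with Peg3 in the promoter shown above, was far less abundant, at 61 to 151 reads per library. Peg3 stood 33.2 to 65.8 times above Usp29 per length in STZ hearts and 43.0 to 59.1 times in controls.

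Mest, a hydrolase-like gene of embryonic mesoderm, was the most abundant paternal copy gene. It was at 148, 143 and 160.3 FPKM in STZ hearts, against 133, 64.4 and 166 FPKM in controls. Control 2 was the lowest of the 6, at 0.431 times the mean of controls 1 and 3, and the other libraries intermixed. The log2 fold change was 0.41 (SE 0.334; limma, BH-adjusted p = 0.922), and 0.017 without control 2. Its neighbour Copg2, which overlaps it on the other strand, was likewise lowest in control 2.

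Plagl1 encodes a zinc finger factor that acts on other imprinted genes in mouse embryos. It was at 40.8, 41.1 and 32.7 FPKM in STZ hearts, against 32.7, 22.9 and 30.8 FPKM in controls. The groups overlapped only because STZ 3 lay just below control 1. Its log2 fold change was 0.40 (SE 0.172, 95% interval -0.0032 to 0.81; limma, unadjusted p = 0.0514, BH-adjusted p = 0.922), and 0.25 without control 2. Slc38a4, an amino acid transporter gene, was at 28.2, 32.9 and 31.4 FPKM in STZ hearts, against 30.6, 21.2 and 32.2 FPKM in controls, with a log2 fold change of 0.15 that was -0.027 when control 2 was left out. Airn, a noncoding RNA antisense to Igf2r, was at 4.42, 6.63 and 6.35 FPKM in STZ hearts, against 4.89, 5.34 and 7.57 FPKM in controls. Reads from Igf2r cannot be told from its own, because no source used here gives the strand setting of the counting. Peg13, a noncoding RNA inside Trappc9, was at 10.2, 12.2 and 13.8 FPKM in STZ hearts, against 14.3, 6.99 and 13.4 FPKM in controls.

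Impact, a regulator of the amino acid sensor GCN2, was at 3.87, 4.84 and 4.23 FPKM in STZ hearts, against 5.02, 5.61 and 5.12 FPKM in controls. All STZ values were below all controls (log2 fold change -0.24 with SE 0.109; limma, unadjusted p = 0.065, BH-adjusted p = 0.922), and the value was -0.20 without control 2. The exact permutation p was 0.1. Zrsr1, a splicing factor gene, was at 1.59, 1.52 and 1.70 FPKM in STZ hearts, against 2.30, 2.33 and 1.59 FPKM in controls. Controls 1 and 2 were above the STZ range and control 3 was within it. Commd1, which encloses Zrsr1 on the other strand and acts in copper and NF-kB biology, was at 3.02, 2.97 and 3.06 FPKM in STZ hearts, against 3.31, 4.23 and 3.58 FPKM in controls. These groups did not overlap (-0.22 on the log2 scale, SE 0.109; BH-adjusted p = 0.922 by limma; exact permutation p = 0.1), and the value was -0.15 without control 2.

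The Snrpn domain, whose loss in humans gives Prader-Willi syndrome, was unevenly present in the heart. Snrpn, a spliceosomal protein gene, was at 20.5, 16.7 and 17.028 FPKM in STZ hearts, against 26.1, 12.4 and 19.4 FPKM in controls, so the STZ values lay within the control range. Snurf lies within Snrpn on the same strand and was listed at 0 in all libraries, and how shared reads were assigned is not given. Ndn, which encodes the growth suppressor necdin, was at 12.4, 10.6 and 9.03 FPKM in STZ hearts, against 9.81, 18.7 and 11.3 FPKM in controls, with a log2 fold change of -0.25, or 0.0088 with control 2 left out. Peg12, related to Frat regulators of Wnt signalling, was at 1.62 to 1.98 FPKM in STZ hearts and 1.75 to 2.14 FPKM in controls. Magel2, a ubiquitin ligase cofactor, had 11, 16 and 4 reads in STZ hearts, against 14, 89 and 17 reads in controls. Mkrn3, a ring finger gene linked to puberty timing, had 23 to 29 reads in STZ hearts and 14 to 49 in controls.

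Nnat encodes neuronatin, a small membrane protein first known from developing brain, and it had the lowest log2 fold change of the tested members, -0.85 (SE 0.56; limma, BH-adjusted p = 0.922). It was at 1.94, 2.44 and 2.004 FPKM in STZ hearts, against 2.21, 14.2 and 2.65 FPKM in controls. Control 2 was at 5.85 times the mean of controls 1 and 3, and without it the value was -0.13. Nap1l5, related to nucleosome assembly proteins and too low to be tested, was at 0.244, 0.290 and 0.292 FPKM in STZ hearts, against 0.451, 1.37 and 0.310 FPKM in controls. Its groups did not overlap, on 8 to 10 reads per STZ library and 10 to 54 per control library. Peg10, a retrotransposon-derived gene, and Sgce, a sarcoglycan gene that starts back to back with it 98 bases away, were at near levels. Peg10 was at 2.94, 2.45 and 3.36 FPKM in STZ hearts, against 3.10, 1.96 and 3.57 FPKM in controls. Sgce was at 3.32, 3.31 and 3.29 FPKM in STZ hearts, against 3.13, 3.73 and 3.43 FPKM in controls. In control 2 Peg10 was the lowest and Sgce the highest of the 6 values. Zdbf2, a zinc finger gene, stayed under the filter at 0.83 to 1.08 FPKM in STZ hearts and 0.62 to 0.94 FPKM in controls.

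The genes with limited imprinting had log2 fold changes between -0.22 and 0.19. Gnas, the locus of the stimulatory G protein alpha subunit with imprinted side transcripts, was at 11.8, 12.9 and 10.7 FPKM in STZ hearts, against 12.1, 11.7 and 11.7 FPKM in controls (log2 fold change -0.0073, SE 0.104, 95% interval -0.25 to 0.24). The single value per gene sums all its transcripts. Blcap was at 16.3, 16.3 and 16.3 FPKM in STZ hearts, against 18.2, 14.1 and 14.6 FPKM in controls. Ube3a, a ubiquitin ligase imprinted in neurons, was at 5.89, 6.56 and 6.11 FPKM in STZ hearts, against 6.52, 3.39 and 6.58 FPKM in controls. Trappc9, of a vesicle tethering complex, was at 4.67, 4.63 and 4.19 FPKM in STZ hearts, against 4.14, 3.29 and 4.21 FPKM in controls. Inpp5f, a phosphoinositide phosphatase gene, was at 2.93, 3.02 and 2.73 FPKM in STZ hearts, against 2.48, 2.36 and 2.80 FPKM in controls. Ppp1r9a, which encodes the actin-binding neurabin, was at 2.76 to 3.67 FPKM in STZ hearts and 2.35 to 3.52 FPKM in controls. All of these groups overlapped except those of Commd1, given above.

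**Figure D2:**
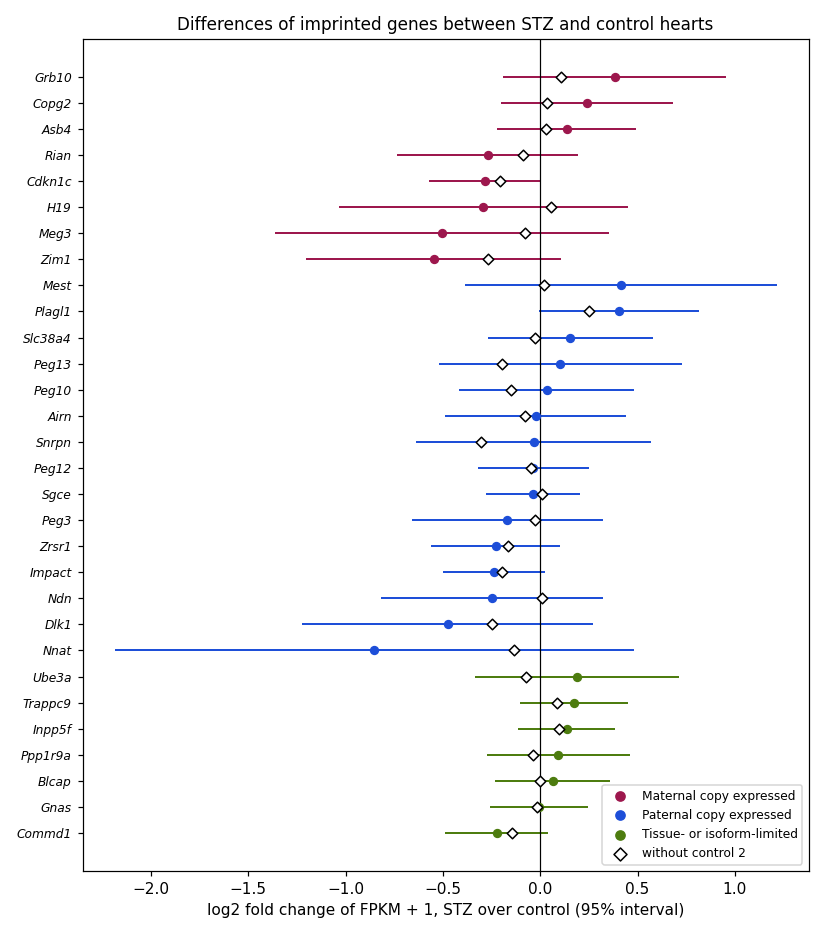
Log2 fold change of FPKM + 1, STZ over control, of the 30 tested members, with 95% limma intervals as lines and the value without control 2 as open diamonds. Apart from Cdkn1c, each interval includes 0, and 24 of the 30 values lie nearer to 0 without control 2.

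The values of STZ and control hearts did not overlap in 4 of the 30 tested members, Grb10 as higher and Cdkn1c, Impact and Commd1 as lower in STZ, where 8.54% of all tested genes did not overlap, 4.92% as higher and 3.62% as lower in STZ. Over the 40 members above 0 in any library, 7 did not overlap, adding Slc22a18, Mirg and Nap1l5, all lower in STZ. The share among all 27486 such genes was 7.13%, with 3.72% lower and 3.41% higher in STZ. Control 2 was the highest library in all 6 of the lower ones. With no filter 3 of the 40 members had an unadjusted p under 0.05, Slc22a18, Cdkn1c and Plagl1, against 2.72% of all such genes, and 0 passed the adjusted threshold, against 0.00728%.

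**Figure D3:**
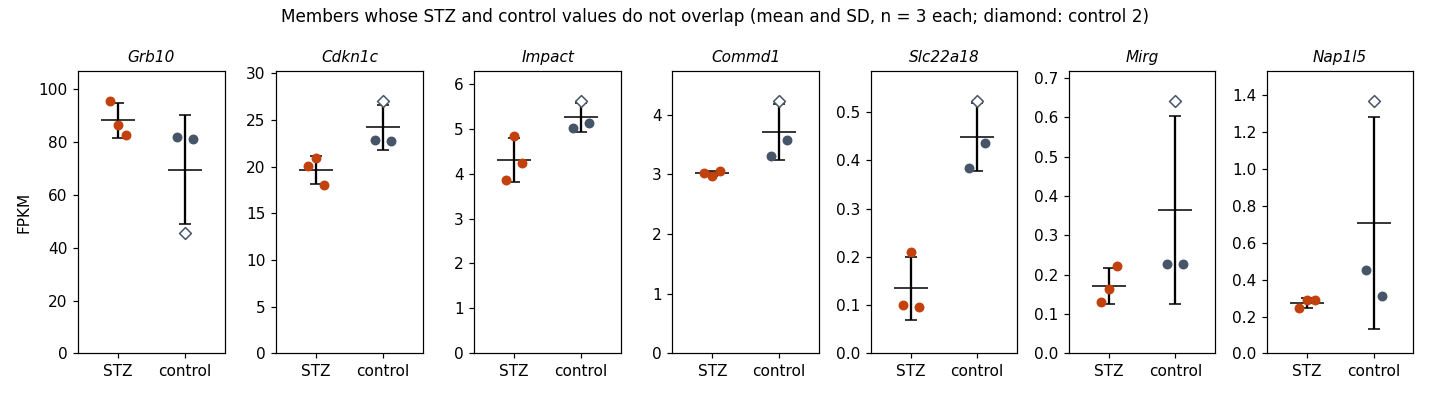
FPKM of the 7 members whose 3 STZ and 3 control values did not overlap, with mean and SD (n = 3 each). Grb10 is higher in STZ hearts and the other 6 genes are lower, and Slc22a18, Mirg and Nap1l5 lie under 1 FPKM in all libraries except Nap1l5 in control 2.

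Control 2 was the highest library for 13 and the lowest for 14 of the 30 tested members, and it lay between the others for Peg12, Airn and Gnas. Over all tested genes it was highest for 27.4% and lowest for 41.7%. These positions are in FPKM, which the authors' scale set lower in control 2 than its recovered reads alone would give. The members highest in control 2 were led by Nnat, Meg3, H19, Zim1, Dlk1 and Ndn, and those lowest in it by Mest, Grb10, Peg13 and Ube3a. Both copies were in both sets, with 5 maternal and 7 paternal copy genes highest and 3 maternal and 6 paternal copy genes lowest. Beside these values, the 10 fibroblast markers summed to 797 to 847 FPKM in STZ hearts, against 875, 1790.3 and 1010.2 FPKM in controls. Erythroid markers summed to 2229, 2387 and 4022 FPKM in STZ hearts, against 4927, 14548 and 2596 FPKM in controls. The 8 macrophage markers summed to 43.9 to 54.0 FPKM in STZ hearts, against 50.9, 108 and 55.6 FPKM in controls. The sums of these lists and of the atrial one were highest in control 2. So was that of the 8 epicardial markers, at 55.1 to 61.7 FPKM in STZ hearts, against 55.7, 98.9 and 76.5 FPKM in controls. Control 2 was highest for 6 of these 8 markers and lowest for 1, Aldh1a2. The 9 endothelial markers summed to 389 to 433 FPKM in STZ hearts, against 417, 301 and 448 FPKM in controls. This sum was lowest in control 2, as were 5 of the 9 markers. The 8 smooth muscle and pericyte markers summed to 433 to 753 FPKM in STZ hearts, against 698, 470 and 580 FPKM in controls. The 8 cell cycle markers summed to 124 to 139.7 FPKM in STZ hearts, against 95.8, 95.8 and 161 FPKM in controls. Their part in the members' values was not tested.

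**Figure D4:**
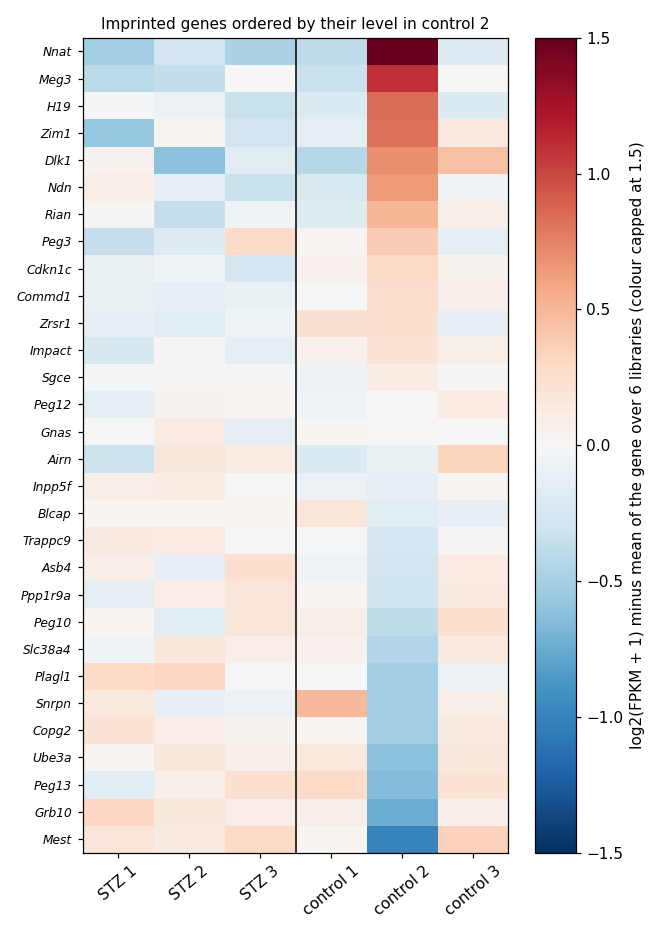
Log2(FPKM + 1) of each tested member minus its mean over the 6 libraries, ordered by the value in control 2, with STZ libraries left and controls right. The control 2 column runs from Nnat at the top, beyond the colour limit of 1.5, to Mest at the bottom, while the other 5 columns stay pale.

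Genes for the machinery that keeps imprints showed no difference past the threshold. Of 22 such genes 18 passed the filter and were tested, 14 with a positive and 4 with a negative log2 fold change, a median of 0.05 and 0 calls (limma, unadjusted p under 0.05 in 0). Trim28, the corepressor that ZFP57 recruits, was at 44.8, 44.4 and 38.7 FPKM in STZ hearts, against 44.7, 38.2 and 45.8 FPKM in controls. Zfp57 itself was at 2.32, 2.07 and 2.58 FPKM in STZ hearts, against 2.15, 3.36 and 2.79 FPKM in controls. Dnmt1, the maintenance methyltransferase, was at 17.1, 17.7 and 19.1 FPKM in STZ hearts, against 17.4, 16.3 and 17.7 FPKM in controls. These 3 were picked for their roles, outside the rule for named genes. Dppa3 and Nlrp5, which act in egg and early embryo, were listed at 0. Of 34 further genes of the imprinted domains 19 were tested, 10 positive and 9 negative, with a median of 0.03. H13, a signal peptide peptidase gene that encloses the imprinted Mcts2, was the 1 with an unadjusted p under 0.05, at 5.28, 4.86 and 5.39 FPKM in STZ hearts, against 6.98, 8.75 and 5.67 FPKM in controls (-0.38 on the log2 scale, SE 0.151; BH-adjusted p = 0.922 by limma; -0.24 without control 2). Its groups did not overlap, nor did those of Atp10a, a lipid flippase gene, at 0.80 to 1.16 FPKM in STZ hearts and 1.26 to 3.05 FPKM in controls. Atp10a is named outside the rule, and its log2 fold change was -0.53, or -0.28 without control 2. Over all tested genes 2.59% had an unadjusted p under 0.05, beside 1 of these 19. Groups did not overlap in 8.54% of all tested genes, beside 2 of these 19.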

How the data were processed

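Heart RNA was measured in 3 STZ and 3 control samples. Per the labels' protocols, total RNA entered a SMARTER library kit for mRNA, and the build was GRCm38 (mm10), per the submitters' processing notes. Aligner, counter and strandedness: not given in the sources used here. The authors deposited FPKM-type values with gene lengths, and the unit was read from the table's abbreviation and its values. Multiplied by gene length, 100% of values above 0 gave whole reads (tolerance 0.01 reads). Over those reads, the divisor behind the authors' FPKM was 1.21 in control 2 and 0.985 to 1.03 in the other libraries. FPKM of control 2 are therefore lower than its recovered reads alone would give. The main test was limma 3.58.1 (R 4.3.3) with a trend on log2(FPKM + 1), group as the only term, BH adjustment over 12431 genes, and exact permutation over the 20 assignments of samples. Fold changes on this scale understate those of low genes. Named genes were, per expressed copy, the 4 most abundant and the 4 of lowest p, plus those with non-overlapping groups, and of the other lists those with p under 0.05. Members, lists and tests were chosen with earlier results of these data known. Same-numbered samples did not deviate together (r over genes 0.021, -0.041 and 0.092). Every pair of libraries differed by more than sampling noise (chi-square per degree of freedom at least 12.8). The fit was also run on simulated data in which no library stood apart and planted changes were larger than that of any tested member. That run therefore does not bear on a library such as control 2 or on changes as small as the members'. Of the members, 41 had the same position in GENCODE M21, and overlaps were read from it. How reads of overlapping genes and of near-identical copies were shared out is unknown. Figures used matplotlib 3.10.9. Of the cell type marker lists, 1 is not reported here.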

Additional observations from a re-analysis of the deposited data

How the results depend on the processing

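No member passed the BH-adjusted threshold under any of the 16 alternatives, whose lowest adjusted p for a member was 0.690, with 0 to 3 members at an unadjusted p under 0.05. With all libraries kept, the unadjusted limma p of Cdkn1c ran from 0.031 with no filter to 0.067 with scaling by recovered reads. Scaling by recovered reads was chosen after seeing the data. Over all tested genes 2 were higher and 1 lower in STZ. With the replicate number as a block 0 were higher and 0 lower. In this balanced design the block leaves fold changes as they are. Counts of higher genes were 1 with a mean of at least 5 FPKM, no filter, a pseudocount of 0.1 or voom. Counts of lower genes were 6 with array weights, 2 with quantile normalization and 0 with voom. Without 1 library they ran from 1 to 2 higher and from 1 to 3 lower.

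The median of maternal copy genes was -0.056 with array weights and -0.022 with a mean of at least 5 FPKM. That of paternal copy genes was -0.088 with array weights, -0.093 with scaling by recovered reads and -0.12 with voom. Without 1 library the medians ran from -0.37 to -0.024 for maternal copy genes, from -0.087 to -0.00048 for paternal copy genes and from -0.014 to 0.18 for limited genes. The end nearest 0 for maternal copy genes, and the negative end for limited genes, came without control 2.

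Of 210 member values under the 7 alternatives that keep all libraries and change fold changes, 11 turned, 9 of them with array weights. These were H19 (0.020), Peg10 (-0.16), Sgce (0.016), Peg12 (0.0031), Airn (0.062), Peg13 (-0.15), Gnas (0.017), Ube3a (-0.010) and Blcap (-0.030). Peg10 also turned with scaling by recovered reads (-0.012) and voom (-0.0072). With 1 library left out 19 of 180 turned, 9 of them without control 2. The ranges were -0.47 to 0.055 for H19, -0.15 to 0.16 for Peg10, -0.087 to 0.011 for Sgce, -0.42 to 0.0088 for Ndn, -0.30 to 0.20 for Snrpn, -0.077 to 0.025 for Peg12 and -0.13 to 0.14 for Airn. They were -0.027 to 0.26 for Slc38a4, -0.20 to 0.27 for Peg13, -0.069 to 0.057 for Gnas, -0.073 to 0.32 for Ube3a, -0.035 to 0.18 for Ppp1r9a and -0.0011 to 0.17 for Blcap. The other 17 tested members kept their direction in all of these fits. For the values that turned, the cause was not tested. The filter is on FPKM and not on reads: untested members had 0 to 243 reads in a library, and tested members 63 to 42041.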
